A study of Mus musculus with 8 samples.

Results

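The 6 genes described here are Lrp2, Cubn, Amn, Dab2, Clcn5 and Fcgrt. They encode the receptors and close partners with which the proximal tubule takes up filtered protein. The choice was made by name, with earlier results of these data known. All 6 had probes on the array, and all 6 were among the 13570 named genes tested. In the proximal tubule, plasma proteins that pass the glomerular filter bind megalin and cubilin at the base of the brush border, are carried inward in clathrin-coated pits and pass through acidifying endosomes. The cargo then goes to lysosomes, while the receptors return to the apical membrane. Albumin can instead be bound in endosomes by the neonatal Fc receptor and carried back. Loss of these receptors or of endosomal acidification is known to let low-molecular-weight proteins and vitamin carriers escape into the urine.

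The kidneys came from mice of 8 weeks of age on a mixed 129Sv/J and C57BL/6J background, all homozygous for the floxed Nrf2 allele (Nrf2Flox/Flox). NEKO mice (Keap1-/-::Nrf2Flox/Flox::K5-Cre, 2 females and 2 males) lack Keap1, the adaptor that marks Nrf2 for degradation, in every tissue. Their K5-Cre transgene is driven by the Keratin5 promoter, so Nrf2 is removed in squamous epithelium and remains in the kidney. The 4 controls were Keap1+/- littermates, 3 with K5-Cre (K1Cre, 1 female and 2 males) and 1 without it (K1, a female), so no wild-type kidney entered the comparison. The comparison asks how the RNA of the uptake machinery stood in kidneys with active Nrf2, read on 1-colour arrays with 1 array per mouse. The 4 females shared 1 slide and the 4 males another, which means that sex and slide cannot be told apart. Both slides carried 2 NEKO and 2 control arrays.

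Values are log2 processed signals less the 75th percentile of all non-control probes on that array, and each gene was read from its probe with the highest mean. The differences below are NEKO minus control on that scale. They were fitted in limma with sex as a term, over 19593 named genes and unnamed transcripts, with an adjusted p under 0.05 as the threshold for a call. From 61.7% to 65.7% of the probes of an array exceeded background clearly, no spot was saturated, and the number of arrays limits the precision. Keap1 itself was at 1.80 and 1.77 in the control females, 1.92 and 1.87 in the control males, 0.45 and 0.06 in the NEKO females and 0.14 and 0.16 in the NEKO males, so the arrays followed their labels. All 35 marker genes of the proximal tubule tested (transporters of its S1, S2 and S3 segments and brush border proteins) were well above background on all 8 arrays. A gene was tested only if its probe was so on at least 4 of 8 arrays. All tested markers of podocytes, endothelium and intercalated cells were also above background on all 8, so this does not single out the proximal tubule.

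The starts of the 6 genes were read for the core of the element that Nrf2 binds with a small Maf partner, searched on both strands as TGACNNNGC in the 250 bases before and 50 bases after each RefSeq transcript start (GRCm38.p6). The core stood in 3 of the 8 windows of the 6 genes (Dab2 and Clcn5 have 2 starts each), and in 12.4% of 32851 mouse promoters of the same length. Shown here are the matches of the 3 genes and, for comparison, that of Txnrd1, a thioredoxin reductase gene and well-known Nrf2 target, each printed on the strand of its gene with the core in capitals. Where the core lies on the other strand, in Amn and Txnrd1, its reverse complement is what the capitals show.
Amn, chr12:111271033-111271101, plus strand: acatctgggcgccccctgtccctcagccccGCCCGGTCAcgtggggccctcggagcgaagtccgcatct
Clcn5, chrX:7188830-7188898, minus strand: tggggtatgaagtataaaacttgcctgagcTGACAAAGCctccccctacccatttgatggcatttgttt
Fcgrt, chr7:45104007-45104072, minus strand: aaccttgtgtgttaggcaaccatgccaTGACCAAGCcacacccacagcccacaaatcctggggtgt
Txnrd1, chr10:82859084-82859152, plus strand: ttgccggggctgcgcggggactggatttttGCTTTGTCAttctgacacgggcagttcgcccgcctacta
Counted from the transcript start, the core began at position -33 in Amn, -154 from the second listed start of Clcn5 and -223 in Fcgrt. A core of Hnf1 sites, searched as GTTAAT, stood at position -65 from the second listed start of Dab2 and in 7.1% of all promoters, and the direct repeat with 1 base between its arms that Hnf4a binds stood in 0 of the 6 genes and in 0.0396% of all promoters. These are matches of letters, not measured binding sites. The absence of TGACNNNGC from the windows of Lrp2, Cubn and Dab2 says only that its letters are not in those windows. Among 12 Nrf2 target genes listed for comparison, 9 had a promoter in the table and 4 of these held the core.

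None of the 6 genes was called in NEKO kidneys, against 0.225% of all tested (44 of 19593). At an unadjusted p under 0.05 the count was also 0 of 6, against 18.0% of all tested, and in none of the 6 did the 4 NEKO mice stand clear of the 4 controls, against 9.28% of all tested (3.89% higher and 5.39% lower). The fitted differences ran from -0.07 (Amn) to 0.14 (Cubn), with a median of 0.04, where the median of all tested was -0.03. The comparison named in the study's methods, run on the same values, called 0 of 6 with or without adjustment. In whole kidney, fewer cells of a type and less RNA per cell cannot be told apart, so each value below is the product of both.

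**Figure D1:**
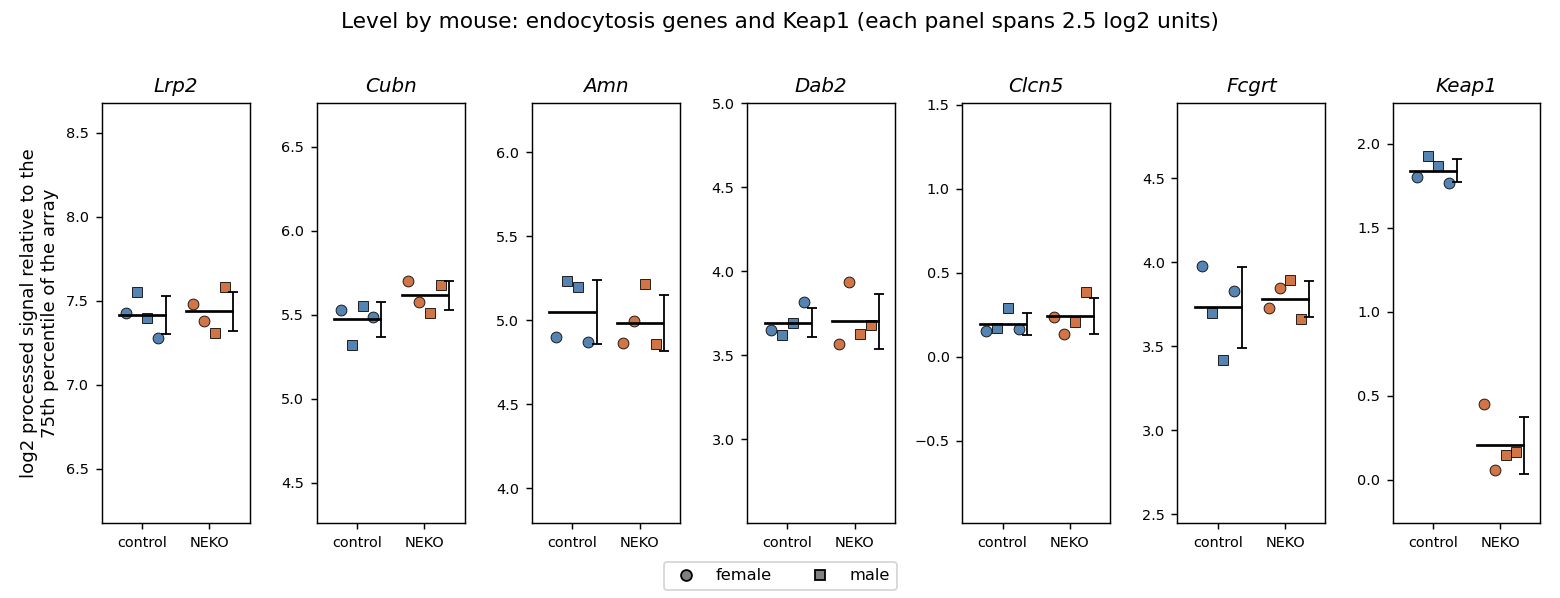
Level of each gene in each mouse (log2 processed signal less the 75th percentile of that array), with circles for females, squares for males, horizontal lines for group means and bars for the SD (n = 4). The 6 endocytosis genes overlapped between the groups, whereas the NEKO mice lay between 0.06 and 0.45 for Keap1 and the controls between 1.77 and 1.92. Heights are not comparable between panels.

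Lrp2 encodes megalin, the giant receptor of the low-density lipoprotein (LDL) receptor family that binds albumin, retinol-binding protein, vitamin D-binding protein and many other ligands. Its level was 7.43 and 7.28 in the control females, 7.55 and 7.40 in the control males, 7.48 and 7.38 in the NEKO females and 7.31 and 7.58 in the NEKO males. The highest and the lowest NEKO values were both males, and the control range of 7.28 to 7.55 covered all but 1 NEKO mouse, whose value was 7.58. The group means were 7.41 ± 0.11 (SD, n = 4) in control and 7.44 ± 0.12 (SD, n = 4) in NEKO kidneys. The difference of 0.02 (standard error 0.09) had an adjusted p of 0.908 from limma, and by a two-sided exact permutation of 4 mice against 4 the p was 0.771. Its 95% interval ran from -12.6% to 18.2% of the control signal.

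Cubn encodes cubilin, a peripheral membrane receptor with no transmembrane segment that binds albumin, transferrin and intrinsic factor with vitamin B12. It was at 5.53 and 5.49 in the control females, 5.32 and 5.55 in the control males, 5.70 and 5.58 in the NEKO females and 5.51 and 5.68 in the NEKO males. Of the 4 NEKO mice, 3 lay above every control, and NEKO replicate 5 lay below 2 of the controls. The means were 5.47 ± 0.10 (SD, n = 4) in control and 5.62 ± 0.09 (SD, n = 4) in NEKO kidneys. The difference was 0.14 (standard error 0.08), or 1.10-fold, with an adjusted p of 0.397 from limma and an exact permutation p of 0.0857, where 0.0286 is the smallest that 4 mice against 4 allow. The 95% interval ran from -3.64% to 26.5%. It was 0.13 in females and 0.16 in males. With each gene read from its probe with the highest mean, this was the largest difference among the 6, and with the mean of the kept probes that of Lrp2 was larger, at 0.17, though not called.

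Amn encodes amnionless, the transmembrane partner that anchors cubilin and brings it to the apical membrane. It stood at 4.90 and 4.87 in the control females, 5.23 and 5.20 in the control males, 4.86 and 5.00 in the NEKO females and 5.21 and 4.86 in the NEKO males. Both control males were above both control females, and of the NEKO males only replicate 5 reached the level of the control males. The means were 5.05 ± 0.19 (SD, n = 4) in control and 4.98 ± 0.17 (SD, n = 4) in NEKO kidneys, a difference of -0.07 (standard error 0.10, adjusted p = 0.751 from limma). The 95% interval of the difference was -19.3% to 12.9%. Across genotypes the males were 0.22 above the females on the log2 scale (standard error 0.10), which was not called (adjusted p = 0.284 from limma, where 0.786% of all tested were called between the sexes).

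Dab2 encodes the clathrin adaptor that binds the cytoplasmic tail of megalin and links it to the coat and to myosin VI; it is also made by macrophages and endothelium. Its level was 3.65 and 3.82 in the control females, 3.62 and 3.69 in the control males, 3.57 and 3.94 in the NEKO females and 3.62 and 3.68 in the NEKO males. The NEKO females held both the lowest and the highest of the 8 values. The means were 3.69 ± 0.09 (SD, n = 4) in control and 3.70 ± 0.16 (SD, n = 4) in NEKO kidneys, and the difference was 0.01 (standard error 0.10, adjusted p = 0.975 from limma, 95% interval -14.4% to 18.1%). Without NEKO replicate 3, the highest mouse, it was -0.07.

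Clcn5 encodes the chloride-proton exchanger of early endosomes whose loss causes Dent disease, with low-molecular-weight proteinuria. It was at 0.15 and 0.16 in the control females, 0.17 and 0.29 in the control males, 0.24 and 0.14 in the NEKO females and 0.21 and 0.39 in the NEKO males. The highest value of each group was a male. The means were 0.19 ± 0.06 (SD, n = 4) and 0.24 ± 0.11 (SD, n = 4), and the difference of 0.05 (standard error 0.07) had an adjusted p of 0.755 from limma and a 95% interval of -8.48% to 16.7%. The spread of Clcn5 within the groups, a residual SD of 0.08, stood at the 9.42 percentile of all tested, where the median SD was 0.18.

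Fcgrt encodes the heavy chain of the neonatal Fc receptor, which binds albumin and IgG at acidic pH and needs beta-2 microglobulin (B2m) as its light chain. It was at 3.98 and 3.83 in the control females, 3.70 and 3.42 in the control males, 3.73 and 3.85 in the NEKO females and 3.89 and 3.66 in the NEKO males. The control mice held both the highest and the lowest of the 8 values, a female and a male. The means were 3.73 ± 0.24 (SD, n = 4) in control and 3.78 ± 0.11 (SD, n = 4) in NEKO kidneys, a difference of 0.05 (standard error 0.12, adjusted p = 0.836 from limma, 95% interval -14.4% to 25.4%). Fcgrt had the widest range over the 8 arrays of the 6 genes, 0.56, which was at the 42.2 percentile of all tested.

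Only Lrp2 and Dab2 had more than 1 kept probe, so their values could be read more than once. The other 3 probes of Lrp2 had differences of 0.14, 0.11 and 0.43. The last of these, A_52_P460882, lay between 0.86 and 1.42 in control mice and between 1.41 and 2.02 in NEKO mice, so the groups met at a single pair of values. Its difference had a standard error of 0.16 and an unadjusted p of 0.0294 from limma, and an adjusted p of 0.247 over the 26026 kept probes, of which 16.9% had an unadjusted p under 0.05. All 4 probes of Lrp2 lay above 0, and none was called, against 0.227% of kept probes. The second probe of Dab2, A_52_P17534, pointed the other way from the first. It lay between 0.67 and 0.97 in control mice and between 0.46 and 0.77 in NEKO mice, with a difference of -0.23 (standard error 0.10, adjusted p = 0.325 from limma). Where in the transcripts these probes lie was not analysed here.

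**Figure D2:**
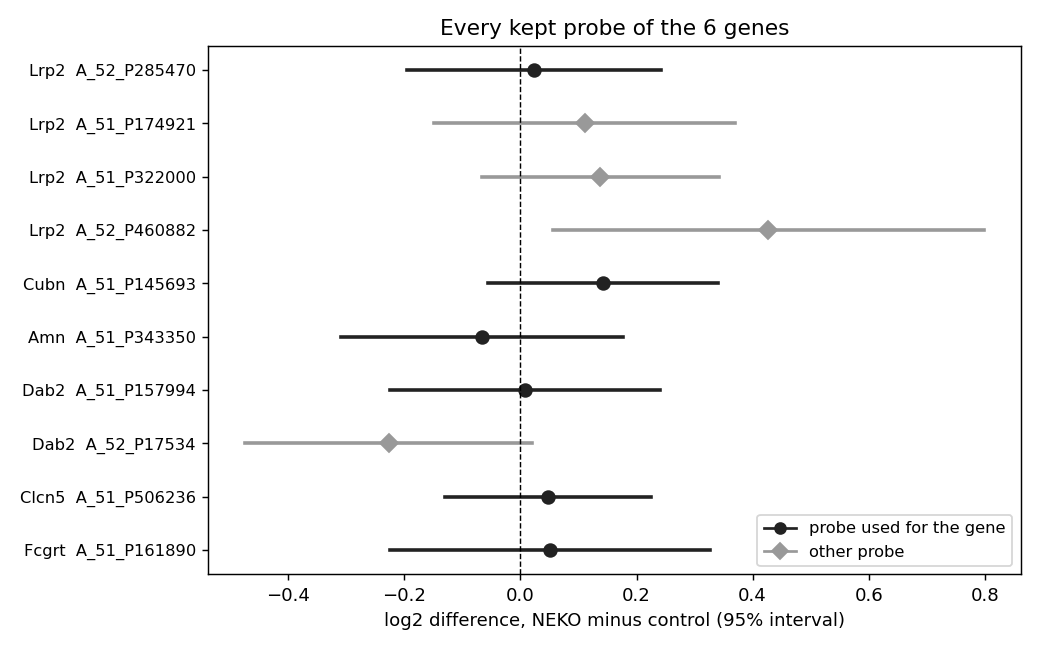
Log2 difference (NEKO minus control, 4 mice against 4) of every kept probe of the 6 genes, with 95% intervals from a limma fit over all kept probes. Dark circles mark the probe a gene was read from and grey diamonds the others. The interval of Lrp2 A_52_P460882, at 0.43, is the only one that leaves out 0, before any adjustment for the number of probes.

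Within each sex the differences of the 6 genes were small and did not all run the same way. In females they ran from -0.12 (Fcgrt) to 0.13 (Cubn), and in males from -0.18 (Amn) to 0.22 (Fcgrt), with 2 mice in each group. The effect in males less that in females was 0.34 for Fcgrt (95% interval -0.17 to 0.85, adjusted p = 0.649 from limma) and -0.22 for Amn (95% interval -0.71 to 0.26, adjusted p = 0.778). For Lrp2 it was -0.11, for Cubn 0.02, for Dab2 -0.02 and for Clcn5 0.04. No gene of the 6 was called for this difference, against 0.0153% of all tested, and none had an unadjusted p under 0.05, against 10.5%. B2m, the light chain that Fcgrt shares with the class I histocompatibility molecules, had differences of -0.26 in females and 0.64 in males. Its difference between the sexes, 0.89, had an adjusted p of 0.238 from limma. Over 9 macrophage markers the median difference was -0.20 in females and 0.51 in males, and Lyz2, the largest, was at 0.08 and 2.67. The 2 NEKO males were unlike in part of this list. C1qa, C1qb and C1qc were at 0.83, 0.20 and 1.64 in NEKO replicate 6 and at -0.27, -0.95 and 0.47 in replicate 5. Adgre1 was at 0.74 in replicate 6 and -0.51 in replicate 5. For Lyz2, Itgam and Mrc1 both NEKO males lay above every control. Lyz2 was at -0.75 in replicate 6 and -1.79 in replicate 5, and the highest control was at -3.05. For Csf1r both lay below every control, and Cd14 was nearly equal in both. Over both sexes the list median was 0.03, and it was -0.13 without replicate 6 and 0.15 without replicate 5. The part of macrophages in the values of Fcgrt and B2m was not tested. The summed linear signal of the 9 markers relative to the 75th percentile was 6.28 to 8.77 in control and 5.57 to 10.4 in NEKO mice, and 8 of the 9 were well above background on all 8 arrays.

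**Figure D3:**
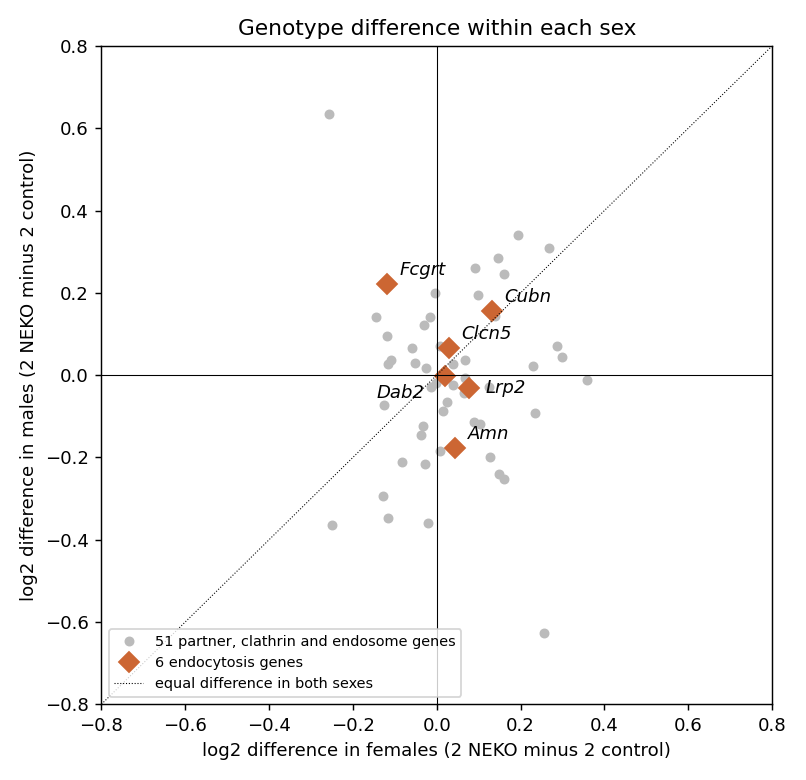
Log2 difference between genotypes in males against that in females (2 NEKO minus 2 control mice each) for the 6 endocytosis genes and 51 genes of their partners, the clathrin coat and the endosome. On the dotted line both sexes have the same difference. Fcgrt, at -0.12 and 0.22, and Amn, at 0.04 and -0.18, lie farthest from that line among the 6, and none of the 6 was called for a difference between sexes.

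The proteins that work directly with the receptors were next. Of 14 partners and adaptors, all tested, 0 were called by limma, 0 had an unadjusted p under 0.05 and 0 stood clear between the groups. Their median difference was -0.00. The extremes were Lrpap1, the chaperone that keeps ligands from megalin in the endoplasmic reticulum, at -0.19, and Sh3bp4, an endocytic adaptor, at 0.20. The second-largest positive value was that of B2m, at 0.19, and the second-largest negative value that of Gipc1, which binds the megalin tail, at -0.08. Myo6, the motor reached through Dab2, was at -0.02, and Ocrl, the phosphatase lost in Lowe syndrome, was at 0.04. No gene of this list was called in any of 21 alternatives with adjusted p-values.

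Among 18 genes of the clathrin coat and of vesicle scission, again 0 were called. At an unadjusted p under 0.05, 3 were higher and 1 lower. Cltc, the clathrin heavy chain, was between 1.32 and 1.44 in control mice and between 1.58 and 1.81 in NEKO mice, so the groups did not overlap. Its difference was 0.29 (standard error 0.08, unadjusted p = 0.0088, adjusted p = 0.162 from limma). Ap2a2, a subunit of the adaptor complex at the plasma membrane, was at 0.27 (adjusted p = 0.202) and also did not overlap, nor did Epn2, an epsin, at 0.18 (adjusted p = 0.260). The lowest values were -0.31 for Amph, a membrane-bending protein, and -0.23 for Itsn1, an intersectin scaffold. The gene lower at an unadjusted p under 0.05 was Hip1r, which ties coats to actin, at -0.21. The median of the 18 was 0.01. The number that stood clear was 3 of 18, all higher in NEKO mice. It is to be read beside the 3.89% of all tested that stood clear higher.

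Of the early and recycling endosome, 19 of 20 genes were tested, with 0 called and 0 at an unadjusted p under 0.05, and the median was -0.00. The range went from Rab38, a small GTPase, at -0.19, to Rab5c, one of the Rab5 GTPases of early endosomes, at 0.22, with Vps35, a retromer subunit, at -0.12 and Ehd3, of the recycling endosome, at 0.14. In the list of endosomal and lysosomal chloride transport and cystine exit, 0 of 6 were called. Relatives of Clcn5 lay on both sides of 0, with Clcn6 at -0.34, Clcn4 at -0.29 (unadjusted p = 0.0268, adjusted p = 0.219 from limma), Clcn3 at -0.05 and Clcn7 at 0.18. Ctns, the lysosomal cystine carrier lost in cystinosis, was at 0.09.

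At the end of the route, 0 of 20 lysosomal genes were called, with 2 higher and 0 lower at an unadjusted p under 0.05. In 2 of them all NEKO mice stood above all controls, where 3.89% of all tested did so. Ctsd, cathepsin D, was between 5.06 and 5.25 in control mice and between 5.25 and 6.03 in NEKO mice, with both NEKO males at the top. Its difference was 0.54 (standard error 0.13, adjusted p = 0.133 from limma), 0.24 in females and 0.84 in males. Lgmn, the asparaginyl protease legumain, was at 0.30 (adjusted p = 0.169), while Tfeb, a transcription factor of lysosomal genes, was at -0.48 and Gla, alpha-galactosidase A, at -0.19. For Tfeb control replicate 7 was at -1.93 and the other controls lay between -3.27 and -2.95, where NEKO mice lay between -3.61 and -3.06. The median of the 20 was 0.02. A lysosomal gene was called in 1 of 21 alternatives with adjusted p-values.

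**Figure D4:**
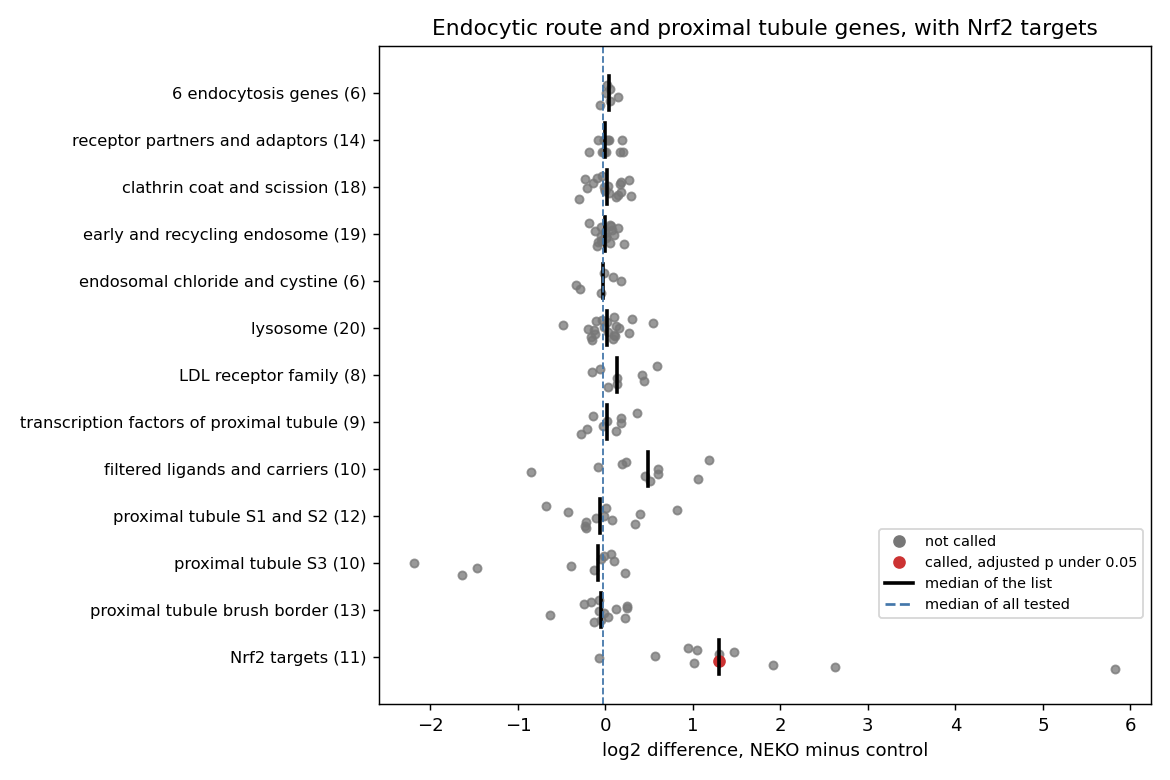
Log2 difference (NEKO minus control) of each tested gene, by list, with the number tested in brackets, black bars for list medians and a dashed line at the median of all tested, -0.03. The 6 endocytosis genes lie between -0.07 and 0.14; the only called gene in these lists is Txnrd1 (red) among the Nrf2 targets, whose median is 1.30.

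Relatives of megalin in the LDL receptor family were tested for 8 of 13 genes, with 0 called, 2 higher at an unadjusted p under 0.05 and a median of 0.13. A gene of this family was called in 1 of 21 alternatives with adjusted p-values. That was the fit with no filter on dim probes, where 10 were tested and 1 was called higher. Lrp1, a scavenging receptor of many tissues, was at 0.59 (unadjusted p = 0.0447, adjusted p = 0.268 from limma), with 0.01 in females and 1.16 in males. Lrp4 was at 0.44 (adjusted p = 0.215), and the lowest were Lrp10 at -0.06 and Lrp11 at -0.16. Of the transcription factors of the proximal tubule, 9 of 11 were tested and 0 called, with 1 higher and 1 lower at an unadjusted p under 0.05. Esrra, an orphan nuclear receptor, stood below all controls in all NEKO mice, at -0.28 (adjusted p = 0.170), Vdr, the vitamin D receptor, was at -0.21, Pparg at 0.36 (adjusted p = 0.201) and Rxra at 0.18. Hnf4a, a master factor of proximal tubule identity, was at 0.01.

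Transcripts of the cargo itself were measured too, although most filtered protein is made in the liver. Of 13 ligands and carriers, 10 were tested and 0 were called, with 2 higher and 1 lower at an unadjusted p under 0.05 and a median of 0.49. The largest were Rbp4, retinol-binding protein, at 1.18 (adjusted p = 0.244 from limma) and Gc, vitamin D-binding protein, at 1.06 (adjusted p = 0.295). Both were close to 0.20 in females, and in males they were at 2.16 and 1.91. Clu, clusterin, a chaperone that binds megalin and is also made in the tubule, was between 4.08 and 4.75 in control mice and between 3.03 and 3.97 in NEKO mice, with a difference of -0.85 (standard error 0.21, adjusted p = 0.129). Tcn2, the carrier of vitamin B12, was at -0.09. Over the 21 alternatives with adjusted p-values the median of the ligand list ran from 0.24 to 0.59.

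Other genes of the same cells give a measure of the proximal tubule on these arrays. Of 12 S1 and S2 transporter genes 0 were called, with 2 higher and 2 lower at an unadjusted p under 0.05. The median was -0.06, or -0.14 in females and -0.00 in males. Slc34a3, a sodium-phosphate cotransporter, lay between 5.40 and 5.88 in control mice and between 4.54 and 5.28 in NEKO mice, a difference of -0.68 (standard error 0.12, adjusted p = 0.0748 from limma). Slc5a2, the glucose transporter SGLT2, did not overlap either, at -0.43 (adjusted p = 0.120), and Slc22a8, an organic anion transporter, stood above all controls in all NEKO mice, at 0.82 (adjusted p = 0.204), with Slc13a1, a sulphate cotransporter, at 0.40. Of the 12, 1 stood clear higher and 2 lower, beside 3.89% and 5.39% of all tested. In 2 of the 21 alternatives with adjusted p-values a gene of this list was called lower. Of 13 brush border genes tested 0 were called, with 1 lower at an unadjusted p under 0.05. Their median was -0.05, or 0.10 in females and -0.10 in males. Values ran from -0.64 (Mep1b) and -0.24 (Mep1a) to 0.24 (Enpep) and 0.25 (Cdh6). Of 10 S3 genes 0 were called and 0 had an unadjusted p under 0.05. The S3 median was -0.09, but 0.17 in females and -0.41 in males. Slc16a9 and Slc6a18 had the highest values, 0.22 and 0.10. Slc22a7 was at -2.19, or 1.56 in females and -5.93 in males, and Acsm3 at -1.64, with interaction adjusted p-values of 0.147 and 0.182 from limma. The level of Acsm3 was 6.14 and 5.35 in the control males and 3.14 and 1.43 in the NEKO males. In females it was -0.87 and -0.43 in controls and -0.12 and -0.83 in NEKO mice. Whether the 6 endocytosis genes differ in response from these markers was not tested.

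Markers of the other cells of the kidney, and genes of tubular injury, were read for their place beside these values. No gene of these 8 lists, macrophages and tubular injury included, was called by limma in the main fit. At an unadjusted p under 0.05 the 52 genes tested gave 6 higher and 6 lower, beside the 18.0% of all tested. Of 21 alternatives with adjusted p-values, 2 called intercalated cell genes (up to 3 lower), 3 a principal cell gene (lower) and 1 a thick ascending limb gene (lower). A tubular injury gene was called higher in 1, and the podocyte, endothelial, macrophage and fibroblast lists had 0 calls. The median difference was 0.17 over 8 endothelial markers, which bears on Dab2, with a summed linear signal of 34.7 to 44.1 in control and 40.3 to 43.3 in NEKO mice. It was 0.03 over the 9 macrophage markers, 0.17 over 7 podocyte markers, 0.57 over 6 fibroblast markers and 0.56 over 7 genes of tubular injury. The last 2 medians differed in sign between the sexes. That of the fibroblast list was -0.33 in females and 1.48 in males. For tubular injury the values were -0.17 and 1.10. The extremes were Tie1 (0.27), Flt1 (0.25), Tek (0.01) and Emcn (-0.03) in the endothelial list, Lyz2 (1.38), Itgam (0.55), C1qc (-0.13) and Csf1r (-0.19) in the macrophage list, and Nphs1 (0.35), Wt1 (0.22) and Synpo (-2.45) in the podocyte list. For Synpo control replicate 4 was at 6.85 and the other controls lay between 3.06 and 4.39. NEKO mice lay between 1.58 and 3.09, so the groups overlapped. For the later nephron the median was -0.24 over 4 markers of the thick ascending limb, -0.21 over 6 of principal cells and -0.90 over 5 of intercalated cells. The summed signal of the intercalated list was 29.4 to 38.7 in control and 3.98 to 18.1 in NEKO mice. In the controls most of that sum is Slc26a4, pendrin, at -2.07 (adjusted p = 0.0814 from limma), the 1 gene of the 5 that did not overlap. The part of these cells in the values of the 6 genes was not tested.

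Nrf2 targets were measured on the same arrays. Of 12 listed, 11 were tested, 10 had an unadjusted p under 0.05 and a higher level (18.0% of all tested passed in either direction), 7 stood above all controls in all NEKO mice (3.89% of all tested), and the median was 1.30. The extremes were Cbr3, a carbonyl reductase, at 5.83 (adjusted p = 0.0541 from limma), Nqo1, Gclm at 0.57 and Hmox1 at -0.08. Only Txnrd1 was called, at 1.30 (adjusted p = 0.0486 from limma), beside 0.0970% of all tested called higher. The count called was 4 under normexp, 3 under eBayes with trend and robust or with array weights, and 7 averaged over the sexes with an interaction. Any target was called in only 9 of the 21 alternatives with adjusted p-values. The count was 0 in the rest, among them quantile normalization, detection on all 8 arrays and the methods' comparison with adjustment. The Txnrd1 call held in 7 of 21 alternatives with adjusted p-values, and of the 8 fits with 1 mouse left out it held only without NEKO replicate 2 (adjusted p = 0.0375), with values up to 0.154 in the rest. Nqo1, the quinone reductase, was at 2.45 and 2.46 in the control females, 1.24 and 2.35 in the control males, 3.89 and 4.41 in the NEKO females and 5.25 and 5.45 in the NEKO males. Its difference was 2.62 (standard error 0.43, adjusted p = 0.065). Amn, Clcn5 and Fcgrt, whose windows hold the same core as that of Txnrd1, were at -0.07, 0.05 and 0.05.

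The 6 genes were compared with each other over the 8 arrays, on levels that share the scaling of each array. On the levels as they stand, 0 of 15 pairs had an adjusted p under 0.05 by a two-sided exact permutation test of Pearson's r, and 0 of Spearman's rho. The strongest by both measures on these levels was Clcn5 with Fcgrt, at r = -0.63 (exact permutation p = 0.0954, adjusted over the 15 pairs p = 0.711) and rho = -0.74 (exact permutation p = 0.0458, adjusted p = 0.623). Without the 2 mice farthest from the median of Clcn5, r was -0.42. Within females r was -0.73 and within males -0.40, over 4 mice each. Cubn and Amn, which form the cubam receptor, had r = -0.63 (exact permutation p = 0.098, adjusted p = 0.711), rho = -0.67 (exact permutation p = 0.0831) and r = -0.29 without the 2 mice farthest from the median of Cubn. Lrp2 and Cubn had r = 0.12 (exact permutation p = 0.774, adjusted p = 0.889). These values leave in the difference between the sexes, which is also that between the slides. With the mean of each sex removed and the mice permuted only within a sex, a setting chosen after seeing the data, 1 of the 15 pairs passed. It was Amn with Clcn5, at r = -0.86 (exact permutation p = 0.0017, the smallest that 576 permutations can give, adjusted p = 0.026) and rho = -0.93 (exact permutation p = 0.0017, adjusted p = 0.026). Within females r was -0.68 and within males -0.90, over 4 mice each, and without the 2 mice farthest from the median of Amn it was -0.50, so the relation rests in part on those mice. On the levels as they stand r was -0.12 (exact permutation p = 0.795, adjusted p = 0.889). Cubn with Clcn5 did not pass, at r = 0.88 (exact permutation p = 0.0156, adjusted p = 0.117), with 0.79 in females and 0.92 in males. Clcn5 with Fcgrt was at -0.46 and Cubn with Amn at -0.64 when the sex means were removed, and neither passed (adjusted p = 0.816 by the exact permutation test for both).

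Genes whose pattern over the 8 arrays was most like each of the 6 were found by Pearson's r after the mean of each sex was removed, among 13518 genes, and are given as a description with no test. With so many genes and 8 arrays, values of this size are reached for all 6. Nearest to Lrp2 was Ssu72 (0.952), to Cubn Dlg1 (0.988) and Hnf4aos (0.977), to Amn Cyp4b1 (0.970), to Clcn5 Tmem135 (0.988) and to Fcgrt Atp12a (0.962). For Dab2 the nearest were Fignl1 (0.987), Ccna2 (0.985), Kif4 (0.978) and Mki67 (0.977), of which Ccna2 encodes cyclin A2 and Mki67 the proliferation marker Ki-67. The rest of the nearest 5 were Entpd8, Zfp983, Erlec1 and Ulk2 for Lrp2, Eva1c, Zfp949 and Jagn1 for Cubn, Relch, Fbxo4, Sdhaf1 and Fbxl15 for Amn, Elavl1 for Dab2, Borcs8, Zfp74, Ppox and Ripor3 for Clcn5, and Mov10, Thsd7a, Evi2 and Sprr2j-ps for Fcgrt.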

How the data were processed

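Kidney RNA of 8 mice was hybridised to Agilent 1-colour arrays. The authors deposited Feature Extraction (10.7.3.1) output with intensity values per spot, whose processed signal is background-subtracted, and a matrix of log2 values that differences between arrays showed to be the same signal relative to the 75th percentile and centred on each probe's median (99.9% of values within 0.01 of those recomputed, column medians -0.04 to 0.08). The normalization used for the arrays is not given in the sources used here. Outlier spots were left out and spots of a probe averaged. Kept probes were well above background on at least 4 of 8 arrays, with a value on at least 6. Of 41174 probes, 26690 were named by accession through RefSeq (GRCm38.p6); probe coordinates are on mm9 and are not given.

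Genotype was tested in limma 3.58.1 (R 4.3.3) with sex as a term and Benjamini-Hochberg adjustment over 19593 genes and unnamed transcripts, and the interaction of sex and genotype in a second model. The fit was tested on simulated data. Nothing in the labels or methods ties mice to more than 1 array each, and the most alike pair of arrays had r = 0.989 over kept probes. The normexp alternative (offset 50) used the median signal and its local background. Promoter sequences are from RefSeq.

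The 6 genes and the 20 lists beside them were chosen with earlier results of these data known. The genes named are the 6 with every kept probe, and of the lists the called genes and the 2 with the largest positive and the 2 with the largest negative differences, with Keap1 and Nqo1 as checks. Of the lists of later nephron cells, fibroblasts and tubular injury the medians are given in place of these genes, and 1 gene of the podocyte list is not reported here. Myo6, Ocrl, Clcn3, Epn2, Hip1r, Hnf4a, Slc26a4, C1qa, C1qb, Adgre1, Mrc1 and Cd14 stand outside this rule and were named with their values in view. No value column lacked a sample.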

Additional observations from a re-analysis of the deposited data

Results flagged for a closer look

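In 2 of 24 groups of 4 mice looked at, 1 mouse stood far from the rest, measured as its gap to the nearest other mouse over the whole range of the group; chance gives this in about 1 group in 20. For Clcn5 in the controls the ratio was 0.848: replicate 7, a male, was at 0.29 and the others lay between 0.15 and 0.17. Without that mouse the fitted difference of Clcn5 was 0.07 and was not called. For Nqo1 in the controls the ratio was 0.910: replicate 4, a male, was at 1.24 and the others lay between 2.35 and 2.46. For the 6 endocytosis genes the same mouse held the highest control values of Lrp2 (7.55) and Amn (5.23) and the lowest of Cubn (5.32) and Dab2 (3.62).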

How the results depend on the processing

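The count of called genes among the 6 was 0 in all 22 alternatives, and the lowest adjusted p of any of them, over alternatives and other probes, was 0.247 for Lrp2, 0.315 for Cubn, 0.609 for Amn, 0.325 for Dab2, 0.637 for Clcn5 and 0.661 for Fcgrt. Cubn (0.09 to 0.19) and Clcn5 (0.01 to 0.08) kept a positive difference throughout. The sign of Dab2 turned with the mean of its kept probes (-0.11), with array weights (-0.027) and with its other probe (-0.23). Lrp2 was positive in all alternatives but 3 of the 8 that leave out a mouse, at 0.12 with quantile normalization and 0.17 with the mean of its kept probes. With each mouse left out in turn, Lrp2 ran from -0.019 to 0.088, Amn from -0.12 to 0.027, Dab2 from -0.068 to 0.080 and Fcgrt from -0.040 to 0.11, so each of these 4 changed sign in at least 1 such fit.

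The count of all named genes called, 38, moved to 138 under normexp, 25 with no filter on dim probes, 18 with detection on all 8 arrays, 23 with no sex term, 75 with eBayes trend and robust, 82 with array weights and 412 when averaged over the sexes with an interaction. The methods' comparison gave 1625 without adjustment and 1 with it. Leaving out each mouse gave 15 (without NEKO replicate 6) to 34 (without control replicate 1). The count was also lower by over 1.5 times without control replicates 4 (18), 7 (16) and 8 (20) and without NEKO replicate 5 (17). The causes were not tested. Among the 15 pairs of the 6 genes, 0 passed as the levels stand and 1 with sex means removed, a setting chosen after seeing the data. No paired analysis was possible because no replicate number is shared between the groups.

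With 4 mice a group, the 95% interval given for each gene holds for the probe it was read from. Other probes reached beyond these intervals. That of Lrp2 A_52_P460882 ran from 0.06 to 0.80 on the log2 scale, and that of Dab2 A_52_P17534 from -0.47 to 0.02. The 6 genes were all well above background on all 8 arrays.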
